A study of Homo sapiens with 8 samples.

Results

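DDX6 and the deadenylation and decapping genes around it are described here in 143BTK- cells, a human osteosarcoma line. The set was chosen by name, with earlier results of these data known. It holds 10 genes that degrade mRNAs downstream of microRNA silencing: DDX6, CNOT1, CNOT2, CNOT3, CNOT6, CNOT7, CNOT8, DCP1A, DCP2 and PAN3. Of these, 9 were measured among the 15982 genes with read counts, and CNOT3 is not analysed here. All cells grew without glucose in 10 mM galactose with dialysed serum and uridine. Cells of 4 libraries were given 80 pmol of hsa-miR-101-3p as a synthetic RNA mimic, and cells of the other 4 libraries the same amount of a scrambled negative control mimic. Each culture was transfected with a lipid reagent at 0 h and a further time at 48 h, and RNA was taken at 120 h. The labels speak of 4 independent transfections and number the libraries 1 to 4 in both groups. All cells come from 1 line, and the mimic adds the microRNA from outside the cells.

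A microRNA guides an Argonaute protein to matching sites, mostly in 3' untranslated regions (3' UTRs). Argonaute binds a TNRC6 protein, which recruits the deadenylases PAN2-PAN3 and CCR4-NOT to shorten the poly(A) tail. The CCR4-NOT scaffold CNOT1 also binds the helicase DDX6, which represses translation and links the mRNA to the decapping enzyme DCP2 and its activators, after which XRN1 degrades the body of the mRNA. The question for these genes is whether the mRNAs of this machinery themselves differed in cells given the mimic.

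The mature microRNA that the mimic copies is shown because its seed, bases 2 to 8 counted from the 5' end and given in capitals, sets the matches searched for. The sequence is from RefSeq (GRCh38.p14, chromosome 9, 4850345 to 4850365, plus strand, MIR101-2).
hsa-miR-101-3p: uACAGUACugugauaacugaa
Matches were searched on the sense strand of each gene's longest 3' UTR in GENCODE 29 (GRCh38). Their kinds were GTACTGTA (the 8mer), GTACTGT without that last A (the 7mer-m8) and TACTGTA without the leading G (the 7mer-A1), and a base stretch was counted once, under its strongest kind.

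The 9 genes held 8 such matches, in 5 genes, and none was an 8mer. DDX6 and DCP2 each held a 7mer-m8, CNOT1, CNOT7 and DCP1A held only 7mer-A1 matches, and CNOT2, CNOT6, CNOT8 and PAN3 held none. Among 12443 tested genes with a 3' UTR, 4.60% held an 8mer as their strongest match, 8.16% a 7mer-m8, 11.0% a 7mer-A1 and 76.2% none. The 9 genes have long 3' UTRs, with a median of 4152 bases against 1457 over all these genes, so the numbers of matches are not comparable with those of shorter genes. The 7mer-m8 of DDX6, the 1 called gene of the 9, and the 7mer-A1 of the scaffold gene CNOT1 are shown with up to 18 bases before and 4 after, as the mRNA reads, with the match in capitals.
DDX6 (chr11:118750865-118750893, minus strand): ggcccagaaatctgggatGTACTGTttgc
CNOT1 (chr16:58519973-58520001, minus strand): ttcttgtatgtgtatgcaTACTGTAgcta
The DDX6 match starts at base 1230 of a 3' UTR of 4339 bases. The CNOT1 match starts at base 975 of 1007, close to the end of that 3' UTR. A match is a string of letters and does not show that the site was bound.

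**Figure D1:**
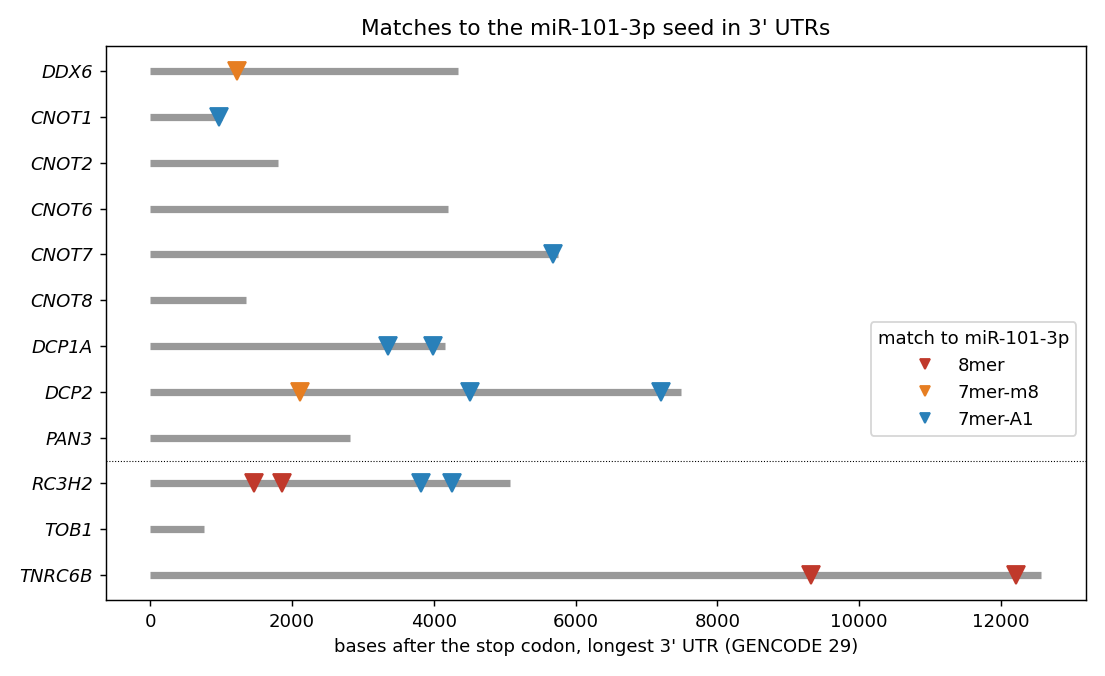
Position of each match to the miR-101-3p seed along the longest 3' UTR of 12 genes, in bases after the stop codon; grey bars are the 3' UTRs and triangles the matches, coloured by kind. The 9 genes above the dotted line hold 8 matches and no 8mer, while RC3H2 and TNRC6B below it, 2 genes named further on from the wider pathway, each hold 2 matches of the 8mer kind.

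Levels are given as CPM, the counts of a gene scaled to a fixed library total, after TMM factors, which correct for differences in library composition. Differences are log2 fold changes (positive where miR-101 is higher) ± standard error, from edgeR's quasi-likelihood test on all 15905 tested genes with the group as the only term. A gene was called at a Benjamini-Hochberg adjusted p under 0.05. Over all tested genes, 528 were called lower (3.32%) and 525 higher (3.30%), and the groups did not overlap for 15.1%. Total counts ran from 17603054 to 20160267 per library. RN7SL1 was the most abundant RNA in every library, at 4.00% to 5.35% of the counts, and the 10 most abundant RNAs took 14.1% to 19.4%, most in miR-101 replicate 4 and control replicate 3. Replicates 1 and 2 lay closer together than other libraries of a group: the chi-square of their counts per degree of freedom was 3.78 with miR-101 and 4.63 in the control, above sampling noise, against 14.3 to 69.0 for other pairs. In replicates 1 and 2 alone 5126 genes were called, and in replicates 3 and 4 alone 6. Of 6 osteosarcoma and mesenchymal markers tested, 1 was called higher and none lower by edgeR, and 3 had positive and 3 negative values. With the replicate block 3 were called higher, beside 883 of all 15905 tested genes called higher in that fit. RUNX2 rose (log2 fold change 0.93 ± 0.212, edgeR adjusted p = 0.0269). COL1A1 stood at 13.5 ± 3.97 CPM with miR-101 and 6.29 ± 2.83 in the control (1.10 ± 0.311 on the log2 scale, edgeR adjusted p = 0.0619). SPARC had a log2 fold change of 0.74 ± 0.478 (edgeR adjusted p = 0.395), VIM of -0.20, FN1 of -0.27 and CD44 of -0.17. SPARC stood at 1433.4, 1442.5, 530.1 and 362.4 CPM in miR-101 replicates 1 to 4. In control replicates 1 to 4 it was at 840.85, 796.3, 323.7 and 294.95 CPM, so replicates 1 and 2 were higher than 3 and 4 in both groups. VIM was at 580.9 ± 151.9 CPM in miR-101 and 668.5 ± 162.3 CPM in control libraries. The epithelial genes KRT18 and EPCAM stood at 391.7 ± 99.2 against 274.5 ± 31.0 and 12.7 ± 3.81 against 7.75 ± 2.45 CPM (SD, n = 4 each) and were not called (edgeR adjusted p = 0.12 and 0.137), and the part of either marker list in the results below was not tested. The endothelial gene PECAM1 was near the floor, at 1.64 ± 0.526 against 2.41 ± 1.45 CPM, and COL1A2, PTPRC, CD3E and ALB are not analysed here.

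With the mimic DDX6 fell 1.30-fold, and it was the 1 gene of the 9 that was called. Of the other 8, CNOT2 had the next largest difference, with a mean 1.24 times as high in the control. DESeq2 and limma-voom also called DDX6 alone (5.58% and 3.19% of all genes were called lower by them). None of the 9 was called higher by these 3 tests. At an unadjusted p under 0.05 edgeR had 3 of the 9 lower (DDX6, CNOT2 and CNOT8) and none higher, beside 10.9% of all genes lower and 11.4% higher. In all, 8 of the 9 had a negative log2 fold change, with a median of -0.17 against -0.005 over all tested genes. For 2 of the 9, DDX6 and CNOT2, no miR-101 library overlapped the controls, beside 15.1% of all genes. One call in 9 rests on a single gene and is set beside the 3.32% called lower over all genes. A lower mRNA share in a bulk culture can come from fewer cells that make the mRNA or from less of it per cell, and these cannot be told apart.

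DDX6 (chromosome 11, 118747766 to 118791149, minus strand) encodes the DEAD-box helicase of processing bodies that joins CCR4-NOT to decapping. Its level was 235.0, 232.6, 241.1 and 222.4 CPM in miR-101 replicates 1 to 4. In control replicates 1 to 4 it was 304.4, 318.6, 322.3 and 266.8 CPM. Every miR-101 library was thus below every control library, and control replicate 4 was the control nearest to them. The means were 232.8 ± 7.79 and 303.0 ± 25.4 CPM (SD, n = 4 each), and the log2 fold change was -0.38 ± 0.096 (95% interval -0.59 to -0.17, edgeR adjusted p = 0.0395). The difference was negative in 4 of 4 same-numbered pairs, from -0.45 in pair 2 to -0.26 in pair 4 on the log2 scale. Transcripts of other genes, the pseudogenes DDX6P1 and DDX6P2, share 0.901% of its 50-base words, and a gene on the other strand overlaps 0.446% of its exon bases.

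The call of DDX6 stood near the threshold and depended on the libraries used. When 1 library at a time was left out, the log2 fold change ran from -0.44 to -0.35 and the edgeR adjusted p from 0.011 (without control replicate 4) to 0.122 (without control replicate 2), so that 7 of the 8 fits lost the call. The fits without miR-101 replicates 1, 2, 3 and 4 gave edgeR adjusted p of 0.108, 0.116, 0.0784 and 0.0761, and those without control replicates 1 and 3 gave 0.101 and 0.0538. Replicates 1 and 2 alone gave a log2 fold change of -0.42 (edgeR adjusted p = 1.05e-06), and replicates 3 and 4 alone one of -0.34 (edgeR adjusted p = 0.792). The first of these p values is set against the small spread between replicates 1 and 2, where 16.4% of all genes were called lower. With the counts of replicates 1 and 2 summed to 1 sample per group, the log2 fold change of DDX6 was -0.37 (edgeR adjusted p = 0.252). None of the 9 was called there, beside 1.09% of all genes.

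**Figure D2:**
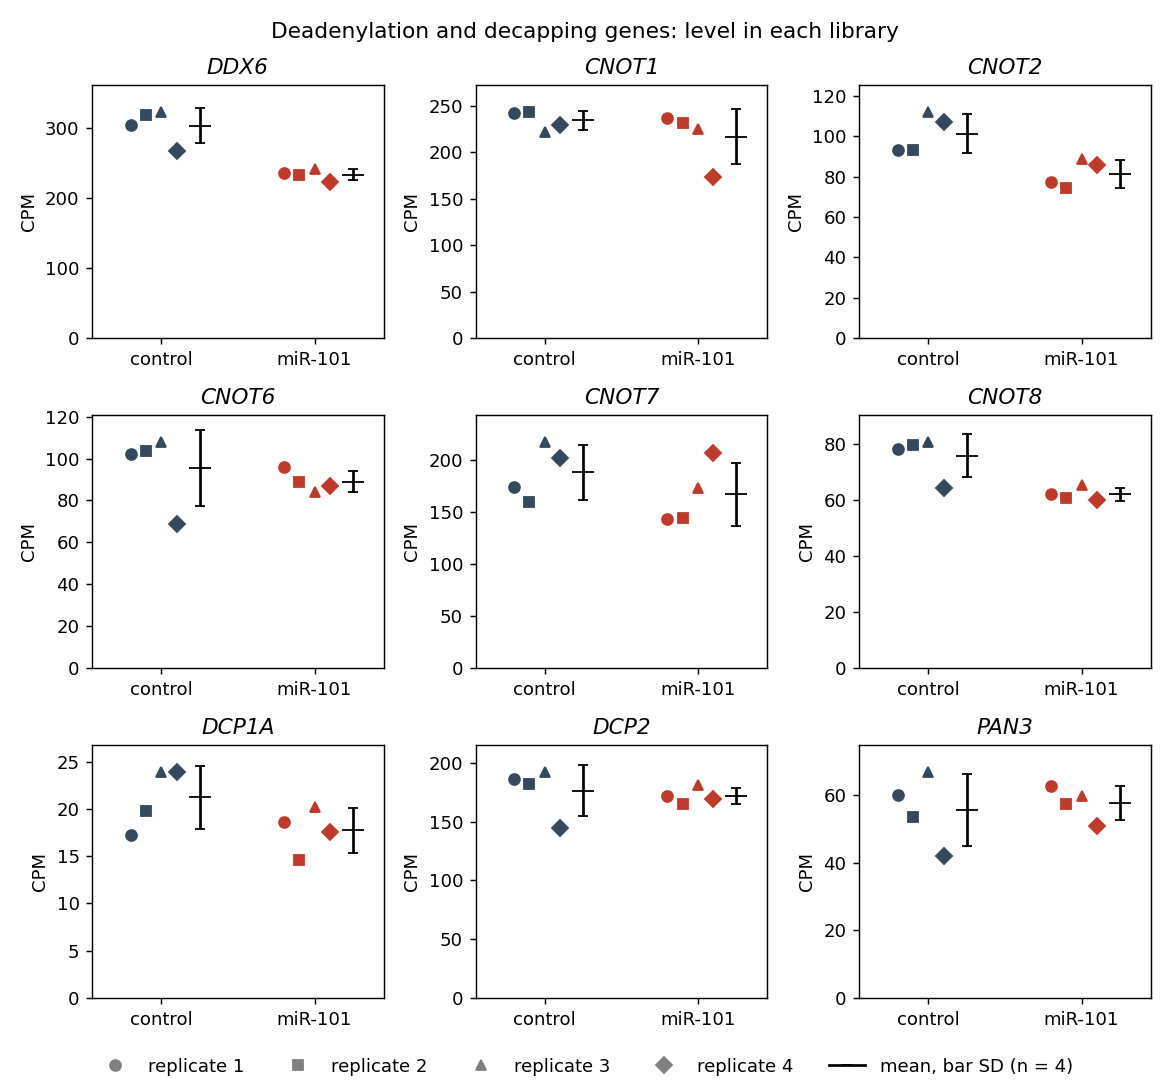
Level of each of the 9 genes in each library, in CPM on an axis from 0; the symbol gives the replicate number, and the black bar the mean and SD of 4 libraries. The groups do not overlap for DDX6 and CNOT2, and control replicate 4 is the lowest control library for 5 of the 9 genes.

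The catalytic subunits of CCR4-NOT differed in how close they came to the threshold. CNOT8 (chromosome 5, 154857553 to 154876793, plus strand), one of a pair of closely related DEDD-type deadenylases, stood at 62.2, 60.8, 65.2 and 59.9 CPM in miR-101 replicates 1 to 4. In control replicates 1 to 4 it stood at 78.2, 79.6, 80.6 and 64.4 CPM. The first 3 control libraries lay above all miR-101 libraries, and control replicate 4 lay among the miR-101 libraries. The difference between the groups was -0.29 ± 0.101 on the log2 scale (95% interval -0.51 to -0.065, edgeR adjusted p = 0.122, lower in 4 of 4 pairs). Without control replicate 4 it was -0.36 with an edgeR adjusted p of 0.0236, so that 1 library decided whether CNOT8 was called.

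CNOT7, the other DEDD-type deadenylase, stood at 143.5, 144.8, 172.9 and 207.2 CPM with miR-101. In the control its level was 174.0, 159.6, 217.5 and 201.6 CPM. The groups overlapped widely, and within both groups replicates 3 and 4 were higher than replicates 1 and 2. A log2 fold change of -0.17 ± 0.145 resulted (95% interval -0.49 to 0.15, edgeR adjusted p = 0.528). It was called lower in replicates 1 and 2 alone, at -0.22 (edgeR adjusted p = 0.0186), beside 16.4% of all genes called lower in that fit. Of the 50-base words in the CNOT7 transcript 2.54% also occur in transcripts of other genes, mainly the pseudogene CNOT7P1, and VPS37A overlaps the locus on the other strand, so its counts are uncertain to that extent. No 50-base word of CNOT8 was shared, and FAXDC2 overlaps 4.15% of its exon bases on the other strand.

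CNOT6 (chromosome 5, 180494412 to 180578405, plus strand), a deadenylase of the EEP type, stood at 95.9, 89.1, 84.2 and 86.7 CPM with miR-101. In the control it stood at 102.1, 103.7, 107.9 and 68.8 CPM. Control replicate 4 was the lowest of the 8 libraries, and the other 3 controls were above all miR-101 libraries. The fitted log2 difference was -0.10 ± 0.139 (95% interval -0.41 to 0.20, edgeR adjusted p = 0.706), and without control replicate 4 it was -0.23 (edgeR adjusted p = 0.126). Its paralogue CNOT6L was at 30.6 ± 4.56 CPM with miR-101 and at 31.8 ± 11.2 in the control, and was not called (-0.05 ± 0.213 on the log2 scale, edgeR adjusted p = 0.918).

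The scaffold and structural subunits of CCR4-NOT were CNOT1 and CNOT2. CNOT2 (chromosome 12, 70242994 to 70354993, plus strand), a subunit needed for the integrity of the complex, stood at 77.1, 74.3, 88.9 and 85.7 CPM with miR-101. In the control it stood at 93.1, 93.3, 112.0 and 107.0 CPM. The groups did not overlap, and replicates 3 and 4 were above replicates 1 and 2 in both. The log2 fold change was -0.31 ± 0.106 (95% interval -0.55 to -0.08, edgeR adjusted p = 0.108). The differences in the 4 same-numbered pairs were -0.27, -0.33, -0.33 and -0.32, the narrowest spread of the 9 genes. In the fit that blocked on replicate number, CNOT2 differed by -0.31 and was called lower (edgeR adjusted p = 0.0496), which brought the calls to 2 of 9, beside 4.99% of all genes called lower in that fit. LINC01481 overlaps 2.11% of its exon bases on the other strand.

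CNOT1 (chromosome 16, 58519951 to 58629886, minus strand), the scaffold to which the deadenylases, DDX6 and TNRC6 proteins bind, stood at 236.5, 231.5, 224.9 and 173.4 CPM with miR-101. In the control it stood at 242.3, 243.0, 221.5 and 229.6 CPM. The low value in miR-101 replicate 4 was the lowest of the 8, and the other 7 libraries lay between 221.5 and 243.0 CPM. Its log2 fold change was -0.11 ± 0.114 (95% interval -0.36 to 0.14, edgeR adjusted p = 0.608), and -0.03 without that library. CNOT1 overlaps SETD6 and an unnamed transcript on the other strand over 11.2% of its exon bases and carries small nucleolar RNA genes inside its locus. Reads from those genes cannot be told apart from its own, because the use of strand in counting is not given in the sources used here.

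Decapping was measured through the enzyme DCP2 and its activator DCP1A. DCP2 (chromosome 5, 112976702 to 113020970, plus strand) stood at 171.6, 165.0, 180.9 and 169.4 CPM with miR-101. In the control it stood at 185.8, 182.2, 192.1 and 144.6 CPM. As for CNOT6, control replicate 4 was the lowest of the 8 libraries and the other 3 controls lay above all miR-101 libraries. On the log2 scale DCP2 differed by -0.04 ± 0.108 (95% interval -0.28 to 0.20, edgeR adjusted p = 0.88). The 3' UTR holds 3 matches, 1 of them a 7mer-m8. The sign of the log2 fold change turned without control replicate 3 (0.00197) and in replicates 3 and 4 alone (0.058). Without control replicate 4 the value was -0.12 (edgeR adjusted p = 0.413).

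DCP1A (chromosome 3, 53283428 to 53347610, minus strand), the least abundant of the 9, stood at 18.6, 14.6, 20.2 and 17.5 CPM with miR-101. In the control it stood at 17.2, 19.7, 23.9 and 23.9 CPM, so that the groups overlapped. Its raw counts ran from 292 to 500, against 6099 at most for DDX6. On the log2 scale the difference was -0.26 ± 0.148 (95% interval -0.59 to 0.069, edgeR adjusted p = 0.339) and was positive in pair 1 (0.11) and negative in the other 3 (-0.44, -0.24 and -0.45). Its paralogue DCP1B had nearly the same mean in both groups, 3.51 ± 0.132 CPM with miR-101 and 3.55 ± 0.0696 in the control (-0.02 ± 0.143 on the log2 scale, edgeR adjusted p = 0.966).

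PAN3 (chromosome 13, 28138506 to 28295335, plus strand), the subunit that brings the nuclease PAN2 to the poly(A) tail and to TNRC6 proteins, was the 1 gene of the 9 with a positive log2 fold change. It stood at 62.7, 57.4, 59.6 and 50.8 CPM with miR-101. In the control it stood at 59.9, 53.4, 66.8 and 41.9 CPM. Replicate 4 was the lowest library in both groups, and the groups overlapped over most of their range. The log2 fold change was 0.05 ± 0.142 (95% interval -0.26 to 0.37, edgeR adjusted p = 0.864) and turned to -0.060 without control replicate 4. Its partner PAN2 was at 32.2 ± 5.28 CPM with miR-101 and 27.2 ± 2.95 in the control (0.24 ± 0.141 on the log2 scale, edgeR adjusted p = 0.352). PAN2 and PAN3 were thus both positive, and neither was called.

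**Figure D3:**
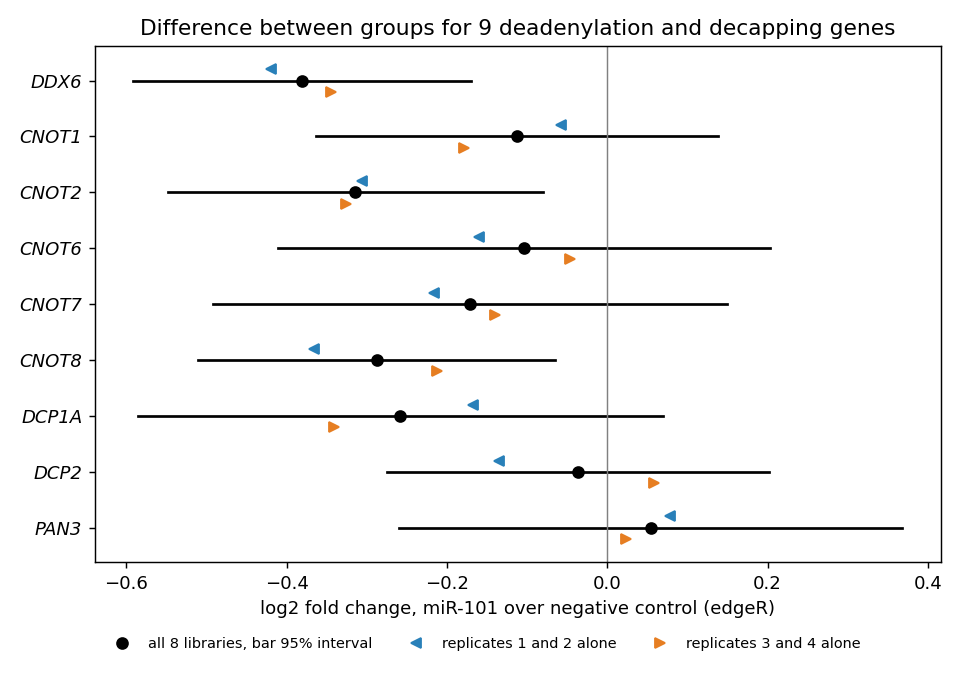
Log2 fold change of each of the 9 genes, miR-101 over negative control, from edgeR; black points and bars are the fit on 8 libraries with the 95% interval, and the triangles the fits on replicates 1 and 2 or on replicates 3 and 4 alone. The intervals of DDX6, CNOT2 and CNOT8 lie below 0, and DCP2 is the 1 gene whose triangles lie on both sides of 0.

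Whether a match bears on the order of these 9 genes was not tested, nor was which 3' UTRs these cells use. Of the 9, only DDX6 and DCP2 held a 7mer-m8. CNOT2 and CNOT8, with no match in the longest 3' UTR, had the second and the third most negative log2 fold change after DDX6, and DCP2 with 3 matches was among those nearest 0. Over all tested genes with a 3' UTR, 8.57% of those with a 7mer-m8 as strongest match were called lower (median log2 fold change -0.096), against 21.9% with an 8mer (median -0.26), 2.85% with a 7mer-A1 (median 0.004) and 2.44% with none (median -0.012). Genes with matches also had longer 3' UTRs (median 2994 bases against 1142 with none), and the part of length was not tested.

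Control replicate 4 was the lowest control for 5 of 9 genes (DDX6, CNOT6, CNOT8, DCP2 and PAN3), and control replicate 3 the highest control for 7 of 9. Over all tested genes these libraries were the lowest and the highest control for 32.9% and 31.9%. The lowest control was replicate 1 for CNOT2 and DCP1A, replicate 2 for CNOT7 and replicate 3 for CNOT1. Leaving out control replicate 4 brought the calls among the 9 to 2, DDX6 and CNOT8, while leaving out any other library brought them to 0 (3 or 4 of the 9 had an unadjusted p under 0.05 in each of these fits). Beside these counts, 4.70% of all tested genes were called lower without control replicate 4, and 1.42% to 4.00% without any other library. In replicates 1 and 2 alone 4 of the 9 were called, all lower (DDX6, CNOT2, CNOT7 and CNOT8), beside 16.4% of all genes called lower there. In replicates 3 and 4 alone none was called by edgeR, beside 0.0379% of all genes, and none of the 9 had an unadjusted p under 0.05.

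To compare the genes with each other, levels were divided by the length of all annotated exon bases of a gene. In the control, DDX6 stood first at 26.5 ± 2.22 CPM per kilobase, and its libraries did not overlap those of CNOT1 (21.6 ± 0.959). CNOT1, CNOT8 (19.3 ± 1.94), DCP2 (17.7 ± 2.16), CNOT7 (17.2 ± 2.39) and CNOT6 (14.5 ± 2.74) followed, each overlapping the next, and CNOT6 overlapped PAN3 (8.74 ± 1.67). CNOT2 (7.24 ± 0.688) overlapped PAN3, and DCP1A (3.46 ± 0.535) stood apart as the lowest. With the mimic, DDX6 was at 20.3 ± 0.681 CPM per kilobase and CNOT1 at 19.96 ± 2.69. The order turned on the length used. Per length of the transcript with the longest 3' UTR, CNOT2 was second at 42.9 ± 4.08, with overlap to DDX6 at 49.3 ± 4.12. That CNOT2 transcript has only 2360 bases, 1801 of them 3' UTR, against 13993 annotated exon bases of the gene. Counts are of the whole gene, so this rank of CNOT2 rests on a short transcript and is uncertain. By transcript length CNOT1 had rank 4, DCP2 rank 6, CNOT6 rank 7 and PAN3 rank 8, each lower than by exon bases. DDX6 and DCP1A kept the first and the last place.

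Over the 8 libraries, the log2 CPM of DDX6 was followed most closely by ITGA6, an integrin subunit, with a Pearson r of 0.993 among 11501 genes with at least 4 CPM on average. ABHD17B (0.991), RNF182 (0.991), SEC14L2 (0.989) and COL22A1 (0.986) came next. All 5 were called lower, with log2 fold changes of -0.80, -0.54, -1.05, -0.88 and -1.06 in that order, and so part of each correlation is the difference between the groups. After the group means were removed, r of these 5 genes with DDX6 was 0.912 to 0.962. Because the 5 were picked by their r over the same 8 libraries, a high value here follows largely from the choice. Among the 9 genes CNOT8 was closest to DDX6, with an r of 0.974 and rank 19, followed by CNOT2 (0.711), and PAN3 was the farthest (0.179). The libraries share their depth and replicate structure, and these values are a description of 8 points.

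The wider decay pathway was followed in 9 lists with 93 genes, also chosen with earlier results of these data known. Of the 93, 87 were tested. Of the 87, 3 were called lower (RC3H2, TOB1 and TNRC6B) and none higher, beside 3.32% of all genes called lower and 3.30% higher. Their median log2 fold change was -0.074 against -0.005 over all tested genes, and 58 of 87 values were negative, beside 8068 of 15905 over all tested genes.

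Among 16 tested proteins that recruit deadenylases to chosen mRNAs, 2 were lower and none was higher, beside the same 3.32% and 3.30% of all genes, and the median was -0.24. RC3H2, which encodes roquin-2, an RNA-binding protein that recruits CCR4-NOT to stem-loops, fell 2.12-fold, from 138.8 ± 12.1 to 65.5 ± 4.91 CPM (log2 fold change -1.08 ± 0.103, edgeR adjusted p = 0.000562). No single library decided the call of RC3H2, which held whichever of the 8 was left out and with replicates 1 and 2 summed (edgeR adjusted p = 0.0178). Its 3' UTR holds 4 matches, and the 2 of the 8mer kind are shown.
RC3H2 first (chr9:122848159-122848188, minus strand): gctgatctttcaccaggtGTACTGTAtgta
RC3H2 second (chr9:122847761-122847790, minus strand): cttagtttcctttggttaGTACTGTAcctt
The log2 fold change of its paralogue RC3H1 was -0.22, with an edgeR adjusted p of 0.259. TOB1, an antiproliferative protein that joins poly(A)-binding protein to CCR4-NOT, fell from 19.1 ± 5.59 to 10.2 ± 1.94 CPM (-0.90 ± 0.226 on the log2 scale, edgeR adjusted p = 0.0395). Its groups overlapped, TOB1-AS1 overlaps 11.2% of its exon bases, and it held no match. TOB1 kept its call when miR-101 replicate 3 or control replicate 4 was left out and lost it for each of the other 6 libraries (miR-101 replicates 1, 2 and 4 and control replicates 1, 2 and 3; edgeR adjusted p up to 0.118), with replicates 1 and 2 summed (0.219) and in limma-voom. BTG3 of the same family had the most positive value of the list (log2 fold change 0.49, edgeR adjusted p = 0.065), was called higher with the replicate block and by DESeq2, and is named after its value was seen.

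The Argonaute and TNRC6 genes, which hand a target to this machinery, had 1 of 7 called lower, beside 3.32% of all genes, and a median of -0.26. TNRC6B fell 1.42-fold, from 49.0 ± 5.33 to 34.6 ± 4.72 CPM (-0.50 ± 0.127 on the log2 scale, edgeR adjusted p = 0.0399), and holds 2 matches of the 8mer kind. Leaving out any of the same 6 libraries as for TOB1 ended the call (edgeR adjusted p up to 0.119) and with replicates 1 and 2 summed (0.197). With the replicate block AGO2 and AGO3 were also called lower, which made 3 of 7, beside 4.99% of all genes called lower in that fit.

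The remaining 7 lists held no call in the edgeR fit on all 8 libraries. The other CCR4-NOT subunits (CNOT4, CNOT6L, CNOT9, CNOT10 and CNOT11) all had negative values, with a median of -0.093, and 1 of 5 had an unadjusted p under 0.05, beside 10.9% of all genes lower at that threshold. That was CNOT11, at 25.6 ± 1.15 CPM with miR-101 and 33.7 ± 4.74 in the control (-0.39 ± 0.119 on the log2 scale, edgeR adjusted p = 0.0781), which DESeq2 called lower. Of 18 further decapping factors and DDX6 partners, 2 were lower at an unadjusted p under 0.05 and neither DESeq2 nor limma-voom called any; the median was -0.061. PATL1, which bridges DDX6 and the decapping complex, stood at 6.58 ± 0.535 against 8.51 ± 1.27 CPM (edgeR adjusted p = 0.175), and LSM14B, a binding partner of DDX6, at 62.5 ± 3.66 against 76.7 ± 11.9 CPM (0.186 by edgeR). LSM14B was called lower by edgeR without control replicate 3, beside 4.00% of all genes called lower in that fit. PATL1, LSM14B and CNOT11 were named after their values were seen.

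XRN1, the exonuclease that acts after decapping, had a mean of 182.9 ± 8.11 CPM in miR-101 libraries and 139.1 ± 27.4 CPM in controls. Its groups did not overlap, and its value was opposite in sign to that of DDX6, at a log2 fold change of 0.39 ± 0.139 (95% interval 0.089 to 0.70, edgeR adjusted p = 0.122). It was not called by edgeR, with the replicate block, by DESeq2 or by limma-voom, and was called higher without control replicate 3. XRN2, its nuclear relative, had a log2 fold change of 0.0020 ± 0.098. Both genes are named to complete a list of 2.

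In the exosome and SKI complex list 1 of 16 genes was lower at an unadjusted p under 0.05 (median -0.015), as was 1 of 10 for nonsense-mediated decay (-0.079), 1 of 8 for poly(A) binding proteins and partners (-0.12) and 1 of 5 for other deadenylases (-0.010), each beside 10.9% of all genes. In these 4 lists DESeq2 called 1 gene, EXOSC5, lower, and limma-voom none.

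**Figure D4:**
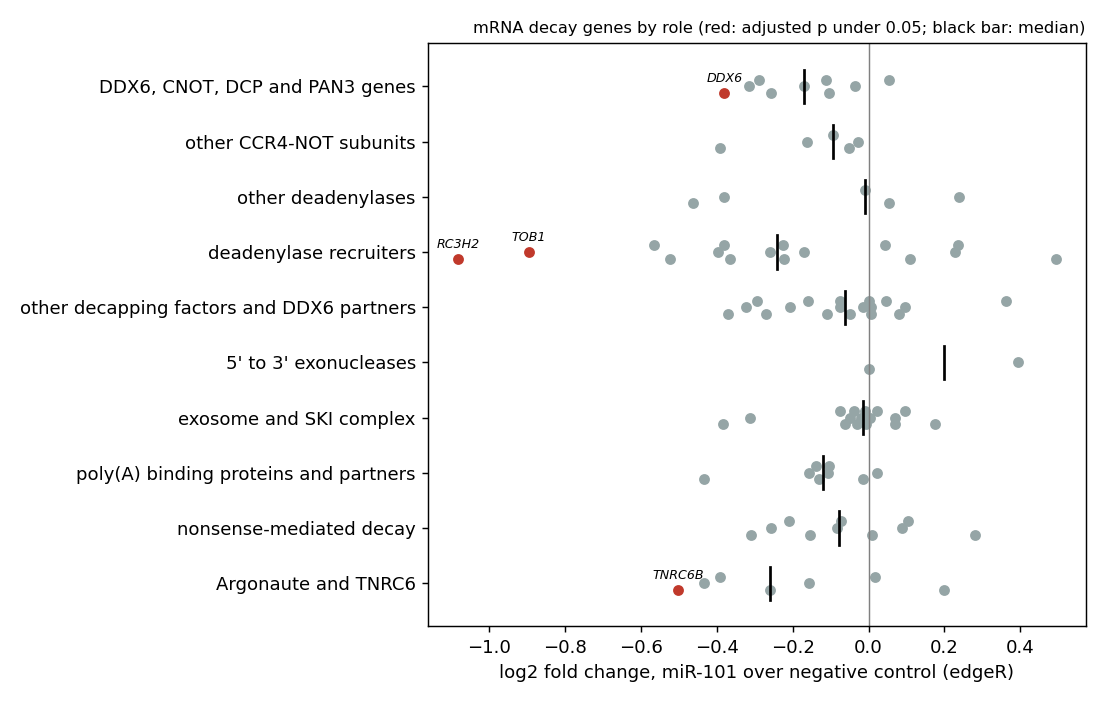
Log2 fold change, miR-101 over negative control, of each tested gene of the 10 lists of mRNA decay genes; each point is a gene, red points were called by edgeR at an adjusted p under 0.05, and black bars are medians. The 4 called genes, DDX6, RC3H2, TOB1 and TNRC6B, all lie below 0.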

How the data were processed

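The authors deposited whole-number read counts per gene symbol for 8 libraries, not normalised. The submitters' processing notes name StringTie 1.2.4, TopHat2 2.0.14 and bcl2fastq 2.18.0.12 with hg38. Which tool counted, with which annotation and strand setting, is not given in the sources used here. Total RNA was depleted of ribosomal RNA, per the labels' protocols. Counts were tested with edgeR 4.0.16 (R 4.3.3; filterByExpr, TMM, glmQLFit without robust estimation, glmQLFTest), with DESeq2 and limma-voom as alternatives. On simulated counts (15683 genes) edgeR recovered 85 of 100 genes changed by 1 on the log2 scale and 25 of 100 changed by 0.6. Smaller changes were thus often missed among those genes. They were drawn at random above a low limit on counts, and the simulation held no likeness between replicates 1 and 2. How often a change of the 9 genes would be missed was not tested. The genes and lists were chosen with earlier results of these data known. Named genes were the 9 measured genes, called genes of each list (at most 5) and the 5 most like DDX6. Same-numbered libraries deviated together from their group means (r of 0.328, 0.425, 0.185 and 0.209). Replicates 1 and 2 also correlated crosswise (0.372 and 0.374), and miR-101 replicate 4 correlated more with control replicate 3 (0.391) than with its own number. The main fit did not pair the samples. Replicate number entered only as the block of an alternative fit, and values of same-numbered pairs are a description. Of the tested symbols, 14026 matched a GENCODE 29 name and 325 another symbol.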

Additional observations from a re-analysis of the deposited data

Results flagged for a closer look

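In 2 of 18 groups of 4 libraries checked, 1 library stood far from the others, and chance gives about 1 in 20 such groups. Both were control replicate 4: CNOT6 at 68.8 CPM, with the next control library at 102.1, and CNOT8 at 64.4 CPM, with the next at 78.2.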

How the results depend on the processing

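Over all genes the calls numbered 1053, and 1676 with the replicate block, 1714 by DESeq2, 173 with replicates 1 and 2 summed, 5126 in replicates 1 and 2 alone, 6 in replicates 3 and 4 alone and 488 to 1419 in the fits that left out 1 library. Among the 9 genes the calls numbered 1, and 2 with the replicate block, 0 with replicates 1 and 2 summed (2 at an unadjusted p under 0.05 in edgeR), 4 in replicates 1 and 2 alone, 0 in replicates 3 and 4 alone (0 unadjusted in edgeR) and 0 to 2 when 1 library was left out. Among the other decay genes they numbered 3, and 6 with the replicate block, 7 by DESeq2, 1 with replicates 1 and 2 summed, 21 in replicates 1 and 2 alone, 0 in replicates 3 and 4 alone (2 unadjusted in edgeR) and 1 to 5 when 1 library was left out. The cause of these differences was not tested. The log2 fold change of DCP2 ran from -0.12 to 0.00197 when 1 library was left out, positive only without control replicate 3, and was 0.058 in replicates 3 and 4 alone. That of PAN3 ran from -0.060 to 0.15, negative only without control replicate 4. The block changed no other call among the 9 genes than that of CNOT2. DESeq2 size factors moved the 9 log2 fold changes by at most 0.003. Raw counts of the 9 genes were at least 292 per library, and whether depth limited their calls was not tested.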
